A study of Mus musculus with 4 samples.

Results

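Expression differences that went with the leukemia fusion ETV6-RUNX1 were described in mouse fetal liver progenitors that lacked Btg1. The array of Btg1-/- + ETV6-RUNX1 cells was set against the array of Btg1-/- + Ctrl cells, gene by gene. Of 18113 genes in the authors' table, 6159 reached a log2 level of 6 on at least 1 of these 2 arrays and were compared, without regard to their difference. The other genes lay below that level, used here as a floor, on both arrays. Of the genes compared, 5618 reached the floor on both arrays, 282 only with ETV6-RUNX1 and 259 only with Ctrl.

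The series profiled 4 cultures on Illumina bead arrays, 1 array each. The groups were Btg1-/- + ETV6-RUNX1, Btg1-/- + Ctrl, WT + ETV6-RUNX1 and WT + Ctrl, where Ctrl is the control retrovirus and ETV6-RUNX1 was also delivered by retrovirus. All cells came from C57BL6/J fetal livers at embryonic day 13.5, were selected on magnetic beads as c-Kit positive and Ter119 negative, and were infected after 24 h of expansion. They stayed in the same medium for 48 h and were then kept for 12 days in 10 ng/ml FLT3 ligand, 20 ng/ml IL-7 and 100 ng/ml stem cell factor. The number of embryos behind a culture, their sex and the share of infected cells are not given in the labels. With 1 array a group nothing could be tested, so every difference below describes 2 cultures and has no replicate check.

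BTG1 is an antiproliferative protein that binds the CCR4-NOT deadenylase complex and the arginine methyltransferase PRMT1, and its gene is recurrently deleted in childhood B-cell precursor leukemia. ETV6-RUNX1 keeps the DNA-binding domain of RUNX1 and joins it to a part of ETV6 that recruits corepressors. In early B cells IL-7 acts through JAK kinases and STAT5 to sustain survival and growth, MYC drives the making of ribosomes, and FOXO factors favor recombination of antigen receptor genes when growth signals are low. BCL6 is a transcriptional repressor that STAT5 holds down and that FOXO factors can induce.

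The array of Btg1-/- + ETV6-RUNX1 cells stood apart from the other 3. Among the 1538 genes whose mean level was 10 or more, the log2 differences in the Btg1-/- pair had a robust standard deviation of 0.291. The same measure was 0.135 in the WT pair and 0.119 between both control-virus arrays. Whether this reflects the fusion, the knockout or this 1 culture cannot be told apart. Each array had between 5869 and 5900 genes at or above the floor. Beside a gene, "spread" is the robust standard deviation of the Btg1-/- differences over that gene, the 250 genes ranked just above it in level and the 250 just below. It ran from 0.13 to 0.66 with a median of 0.36. It contains real differences between these genes and says nothing of how replicate cultures vary.

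The levels of defining genes were read first. Btg1 stood at 9.97 in Btg1-/- + ETV6-RUNX1 and 9.02 in Btg1-/- + Ctrl, against 11.97 and 11.87 in the WT cultures with ETV6-RUNX1 and Ctrl. Both knockout values were thus lower than both WT values, but above the floor, and where the probes lie relative to the deleted part is not given. Etv6 reached the floor on none of the 4 arrays and Runx1 differed by -0.32 in the Btg1-/- pair (7.82 and 8.14), so these values give no readout of the fusion transcript. The B-cell receptor gene Cd79b stood at 13.65 and 13.23 in Btg1-/- cells with ETV6-RUNX1 and Ctrl, and the mast cell protease gene Cma1 at 14.23 and 13.28, so each culture carried RNA of both kinds of cell. In bulk RNA, fewer cells of a type and less RNA per cell cannot be told apart. Pax5, the B-cell identity factor, lay below the floor on all 4 arrays. Xist, which coats the silenced X chromosome, had levels of 7.85 and 7.01 in Btg1-/- cells with ETV6-RUNX1 and Ctrl, and 8.59 and 8.996 in WT cells. The Y-linked gene Eif2s3y had levels of 10.03 and 9.93 in Btg1-/- cells, and 9.07 and 9.43 in WT cells. Xist and Eif2s3y were therefore measured on all 4 arrays. The Y-linked gene Kdm5d stood at 6.49 and 6.92 in Btg1-/- cells with ETV6-RUNX1 and Ctrl. In WT cells it lay below the floor, at 4.17 and 5.35. Ddx3y, also Y-linked, lay below the floor on all 4 arrays. Whether the mix of sexes differed between the genotypes was not tested.

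Of the 6159 genes compared, 104 were at least 2-fold higher with ETV6-RUNX1 in Btg1-/- cells (1.69%) and 146 at least 2-fold lower (2.37%), 250 in all (4.06%). At least 4-fold, 5 were higher and 8 lower. For 23 of the higher and 30 of the lower genes 1 array lay below the floor, and their folds are lower bounds written as "at least". Which of both arrays reached the floor fixes the sign of such a gene in advance, so the main lists are also given over genes that reached it on both. The median difference over all genes was 0.01, with 51.3% of genes above 0 and 48.5% below 0. Genes past 2-fold made up 6.14% of the 2490 genes with a mean level from 6 to 8, 3.43% of the 2131 genes from 8 to 10 and 1.56% of the 1538 genes from 10 up. Among those 1538 genes, 8 were higher and 16 lower.

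**Figure D1:**
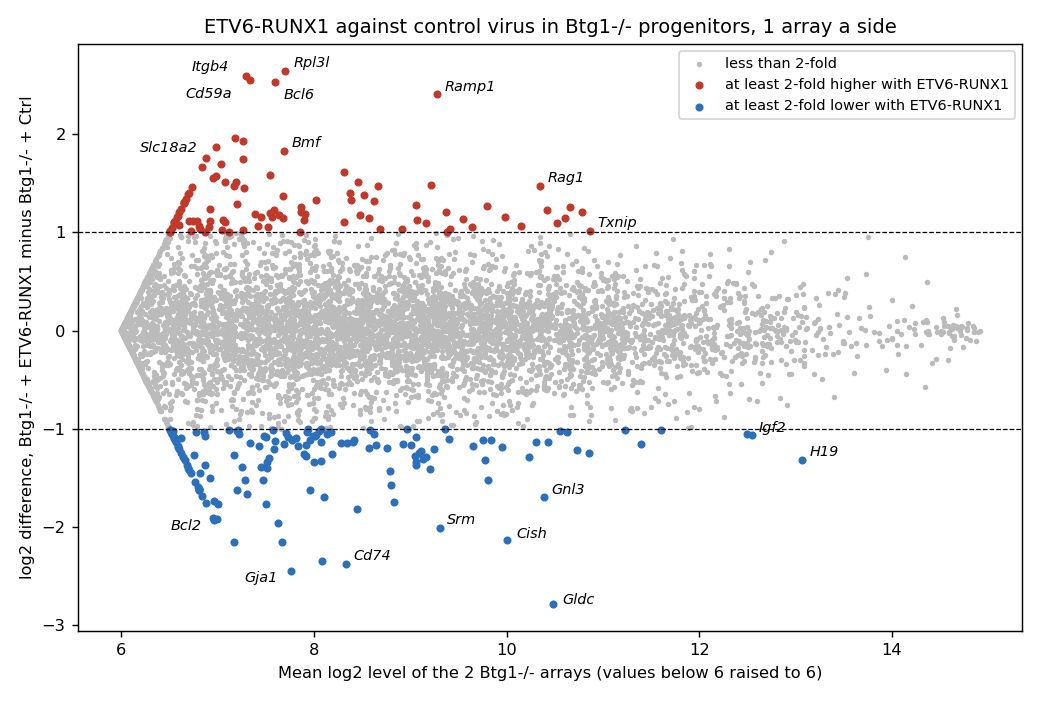
Each point is 1 of 6159 genes. The horizontal axis is the mean log2 level of both Btg1-/- arrays with values below 6 raised to 6, and the vertical axis is the log2 difference, Btg1-/- + ETV6-RUNX1 minus Btg1-/- + Ctrl. Dashed lines mark 2-fold: 104 red points lie above and 146 blue points below, most of them at low levels.

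The list with the most genes past 2-fold lower was that of ribosome making. Of 87 nucleolar ribosome biogenesis genes in the table, 68 were compared, 56 of them reaching the floor on both. With ETV6-RUNX1, 64 lay below 0 and 4 above, 25 were at least 2-fold lower and none 2-fold higher. The list's median difference was -0.83, beside 0.01 for all genes compared. Over the 56 genes alone, 52 lay below 0, 19 were at least 2-fold lower and the median was also -0.83. In WT cells the same list had a median of -0.07, with none of 69 genes past 2-fold in either direction. Among all 6123 genes compared in WT cells, 115 were at least 2-fold higher with ETV6-RUNX1 (1.88%) and 22 at least 2-fold lower (0.359%). Its members act in rRNA transcription, pre-rRNA cleavage and subunit assembly.

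Within that list Gnl3, a nucleolar GTPase, had a level of 9.54 in Btg1-/- + ETV6-RUNX1 and 11.23 in Btg1-/- + Ctrl, against 10.91 and 10.95 in WT + ETV6-RUNX1 and WT + Ctrl. Wdr75, a factor of rRNA transcription and small subunit assembly, stood at 7.26 and 8.95 in Btg1-/- cells with ETV6-RUNX1 and Ctrl, and at 8.58 and 8.63 in WT cells. For both genes the Btg1-/- + ETV6-RUNX1 array was the low one and the other 3 lay close together. Rrp12, a factor of subunit export, stood at 8.02 and 9.59 in Btg1-/- cells with ETV6-RUNX1 and Ctrl, and at 9.34 and 9.60 in WT cells. Pno1, a small subunit assembly factor, differed by -1.29 in Btg1-/- cells (9.59 and 10.88) and by -0.06 in WT cells. Ncl, which encodes the abundant nucleolar protein nucleolin, differed by -0.90 in Btg1-/- cells (9.76 and 10.67, spread 0.34) and by 0.06 in WT cells. Several members lay under the floor in the fusion culture: Rpf2, a large subunit assembly factor, was at least 3.21-fold lower, and Mybbp1a, a nucleolar regulator of rRNA genes, at least 3.06-fold lower. The ribosome chaperone gene Grwd1 differed by -1.73 (6.09 and 7.83) and Ifrd2, which encodes a factor that binds inactive ribosomes, by -2.15 (6.10 and 8.25). The members at the other end were Nop9 at 0.36 and Ddx54 at 0.21, both within their spread.

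Structural proteins of the cytosolic ribosome were centered on 0. Of 52 genes compared, all reaching the floor on both arrays, 25 lay above 0 and 25 below, with a median of 0.00. At the low end was Rps27a at -1.06 (6.69 and 7.75). At the high end was Rpl3l, the largest positive difference among all genes above the floor on both arrays, with 9.02 in Btg1-/- + ETV6-RUNX1 and 6.37 in Btg1-/- + Ctrl, beside 6.95 and 6.59 in WT + ETV6-RUNX1 and WT + Ctrl. Rpl3l is a paralog of Rpl3 known from striated muscle. All other members lay between Rps15a at -0.72 and Rpl22 at 0.36.

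Proteins of the mitochondrial ribosome were lower by less: 60 of 67 genes compared lay below 0, with a median of -0.31 and 2 past 2-fold. These were Mrps18b at -1.43 (8.07 and 9.51) and Mrps2 at -1.17 (6.84 and 8.01). The same list had a median of -0.03 in WT cells. Aminoacyl-tRNA synthetases, which charge tRNAs with amino acids, had 25 of 27 genes below 0 and a median of -0.49, with Ears2, the mitochondrial glutamyl-tRNA synthetase, at -1.39 (6.57 and 7.95) as the member past 2-fold. Eprs, the cytosolic synthetase for glutamate and proline, lay just short of that line at -0.999 (7.16 and 8.15). Of 36 translation factors 29 lay below 0 (median -0.29), and Eef1e1, a scaffold of the synthetase complex, differed by -1.75 (7.96 and 9.70, WT 9.20 and 9.64). Eif1a, which acts in start codon scanning, differed by -1.18 (9.36 and 10.54) and Eif3b by -1.07 (6.95 and 8.02).

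Lower levels extended to enzymes that feed nucleotide and polyamine pools. Of 14 serine, glycine and one-carbon genes compared out of 25 in the table, 13 lay below 0 and 6 were at least 2-fold lower (median -0.73, WT median -0.20). Over the 13 that reached the floor on both arrays the median was -0.59. Gldc, the glycine decarboxylase of the glycine cleavage system, stood at 9.09 in Btg1-/- + ETV6-RUNX1 and 11.87 in Btg1-/- + Ctrl, and at 10.79 in WT + ETV6-RUNX1 and 11.89 in WT + Ctrl. Both fusion cultures were thus below both control-virus cultures, and the difference of -2.78 in Btg1-/- cells (6.88-fold lower, spread 0.36) stood beside -1.10 in WT cells. The WT spread of Gldc, taken the same way from the WT differences, was 0.14. Shmt1 and Shmt2, the cytosolic and mitochondrial serine hydroxymethyltransferases, were at least 3.07-fold lower and lower by 1.19 on the log2 scale (Shmt2 7.98 and 9.17). Mthfd1, which interconverts folate forms, differed by -1.18 (9.07 and 10.24). The purine synthesis genes Gart and Ppat differed by -1.29 (8.52 and 9.81) and -1.25 (7.56 and 8.81), whereas Paics of the same pathway differed by 0.13.

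Of 7 polyamine genes compared, 3 were at least 2-fold lower and the median was -0.95, or -0.64 over the 6 that reached the floor on both arrays. Srm, spermidine synthase, had 8.30 in Btg1-/- + ETV6-RUNX1 and 10.31 in Btg1-/- + Ctrl, against 9.91 and 9.95 in the WT cultures. Odc1, ornithine decarboxylase and the first committed step, differed by -1.02 (11.09 and 12.11) and the salvage enzyme gene Mtap by -1.07 (7.48 and 8.55). Among 48 DNA replication and nucleotide genes the median was only -0.08, but the 3 members past 2-fold all make pyrimidine nucleotides. Dctd, dCMP deaminase, stood at 6.59 with ETV6-RUNX1 and 8.74 with Ctrl in Btg1-/- cells, Cad, which starts pyrimidine synthesis, at 6.47 and 8.14, and CTP synthase (Ctps) at 8.64 and 9.85. The replication gene Prim2 differed by 0.47 and thymidine kinase Tk1 by 0.40. Slc25a33, a mitochondrial pyrimidine nucleotide carrier, was at least 3.36-fold lower and Slc19a1, the reduced folate carrier, differed by -1.17 (8.43 and 9.59). ATF4 target genes, another set rich in amino acid enzymes, had 10 of 13 below 0 (median -0.37). Among them the amino acid transporter gene Slc1a4 was past 2-fold at -1.14 (6.77 and 7.91), while Ddit4 differed by 0.64 (11.10 and 10.46).

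Protein folding and turnover genes were also lower as groups, by less than 2-fold in most members. Of 24 heat shock and chaperonin genes 23 lay below 0 (median -0.42, WT median -0.02), with the mitochondrial chaperonin Hspd1 at -1.25 (10.23 and 11.48) and the CCT chaperonin subunit Cct6a at -0.98 (11.43 and 12.40). All 8 CCT subunits, a subset chosen after their values were seen, lay below 0 with a median of -0.56. Bag3, a cochaperone, was the exception in the list at 0.63 (8.05 and 7.42). Of 29 proteasome genes 27 lay below 0, none past 2-fold (median -0.29), led by the assembly chaperone Psmg1 at -0.97 (8.55 and 9.51). A total was taken over the lists of the MYC network, ribosome making, cytosolic ribosomal proteins, polyamines, one-carbon metabolism, ATF4 targets, tRNA synthetases and translation factors. Together these held 223 of the genes compared (3.62%), and 40 of the 146 lower genes (27.4%) against 2 higher ones. The lists were chosen with earlier results of these data known, so these shares can follow in part from that choice. Chaperone, proteasome and mitochondrial ribosome genes are not in this total.

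**Figure D2:**
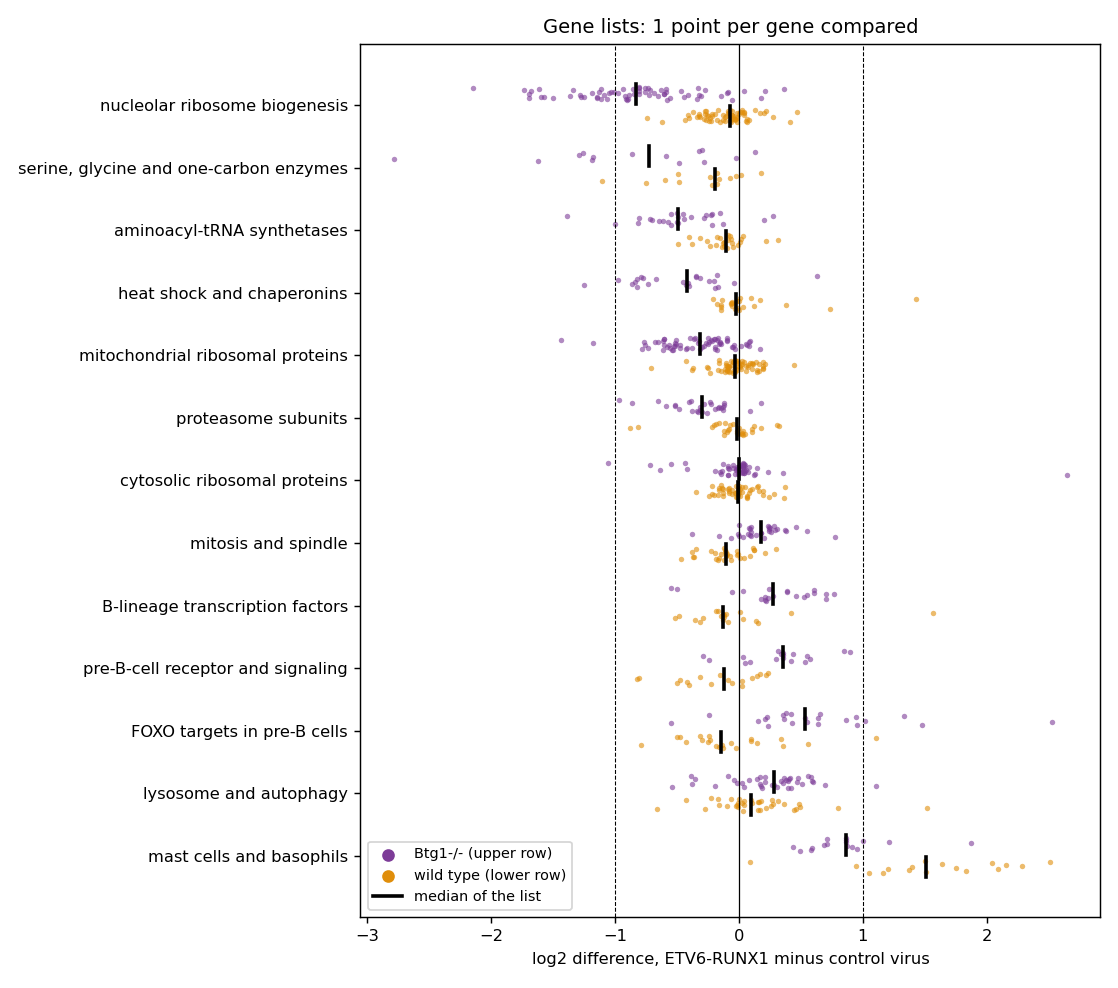
Each point is a gene of the named list, placed by its log2 difference between ETV6-RUNX1 and control virus, in Btg1-/- cells (purple, upper) and in WT cells (orange, lower). Black bars are list medians: in Btg1-/- cells they run from -0.83 for nucleolar ribosome biogenesis to 0.86 for mast cells and basophils, and in WT cells they are -0.07 and 1.51 for these lists.

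Myc itself was below the floor on all 4 arrays, at 2.72 and 4.42 in Btg1-/- cells with ETV6-RUNX1 and Ctrl. Its antagonists of the MXD family, which compete with MYC for the partner MAX, were measured. Of 6 genes of the MYC, MAX and MXD list compared, 3 lay above 0 and 3 below, with a median of 0.14. Mxd4 was at least 3.18-fold higher with ETV6-RUNX1 in Btg1-/- cells (7.67 and 5.95), while in WT cells it stood at 6.62 with ETV6-RUNX1 and 7.02 with Ctrl. Mxd3 differed by 0.89 in Btg1-/- cells (8.10 and 7.20) and by -0.46 in WT cells, and Mxi1 by 0.38 and -0.25 in the same comparisons. Below 0 were Zbtb17 at -0.10, and Max and Mlx, which reached the floor only with Ctrl in Btg1-/- cells, at 6.43 and 6.41.

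Because MYC and MXD proteins bind the E-box CACGTG together with MAX, promoters were searched for this word and 4 others on both strands. Promoters were RefSeq windows of assembly GRCm38.p6, from 250 bases before to 50 after each start site, and were available for 117 of the lower genes, 85 of the higher genes and 4787 of all genes compared. A gene was counted if any of its promoters held the word. CACGTG was present for 28.2% of genes at least 2-fold lower, 8.24% of genes at least 2-fold higher and 12.9% of all genes compared, and in 7.15% of the 32851 promoters of the table. In the nucleolar ribosome biogenesis list it was present for 25.4% of 59 genes. The RUNX core word TGTGGT was present for 14.5% of lower genes, 23.5% of higher genes and 15.2% of all genes compared, and in 16.8% of all promoters. The STAT word TTCNNNGAA was present for 8.55%, 12.9% and 8.21% of lower, higher and all genes compared, and the forkhead word TGTTTAC for 2.56%, 5.88% and 2.88%. The ETS word CCGGAAG, which can share letters with TTCNNNGAA, was present for 27.4%, 12.9% and 24.4%. These shares describe letters in the windows and were not tested. Higher genes had more windows each, 1.40 against 1.19 for lower genes. Per window, CACGTG was in 24.5% of those of lower genes and 5.88% of those of higher genes, and TGTGGT in 12.2% and 18.5%.

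Stretches of 60 promoter bases around the word are shown for genes with large differences, 6 lower ones that hold CACGTG and 4 higher ones that hold TGTGGT. Each is on the strand of its gene with the word in capitals. The stretches lie before the start site but do not all adjoin it. The lower genes are Slc25a33 and Rpf2 (above), Cd3eap, which encodes a subunit of RNA polymerase I, Nop2, an rRNA methyltransferase, Cluh, which binds mRNAs of mitochondrial proteins, and Ifi30, a lysosomal thiol reductase of antigen processing. They lie at chr4:149774268-149774327 (minus strand), chr10:40246980-40247039 (minus), chr7:19359669-19359728 (minus), chr6:125131796-125131855 (plus), chr11:74649444-74649503 (plus) and chr8:70766827-70766886 (minus). In the same order, 2, 20, 212, 54, 13 and 190 bases separate CACGTG from the start site.
Slc25a33: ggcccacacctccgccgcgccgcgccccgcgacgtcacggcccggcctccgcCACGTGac
Rpf2: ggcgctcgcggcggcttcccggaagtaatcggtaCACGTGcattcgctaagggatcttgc
Cd3eap: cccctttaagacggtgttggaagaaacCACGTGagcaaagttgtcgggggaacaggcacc
Nop2: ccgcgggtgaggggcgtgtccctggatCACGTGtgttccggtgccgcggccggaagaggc
Cluh: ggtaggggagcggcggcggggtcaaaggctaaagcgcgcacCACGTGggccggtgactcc
Ifi30: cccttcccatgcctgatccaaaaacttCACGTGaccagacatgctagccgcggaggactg
The higher genes are Cd59a, an inhibitor of complement lysis, Bmf, a BH3-only death gene, the recombinase gene Rag1 and Il12a, the p35 subunit of interleukin 12. They lie at chr2:104095741-104095800 (plus), chr2:118547734-118547793 (minus), chr2:101649567-101649626 (minus) and chr3:68691271-68691330 (plus). In the same order, 15, 161, 61 and 120 bases separate TGTGGT from the start site.
Cd59a: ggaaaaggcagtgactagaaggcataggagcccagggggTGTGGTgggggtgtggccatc
Bmf: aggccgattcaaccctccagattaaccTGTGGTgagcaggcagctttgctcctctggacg
Rag1: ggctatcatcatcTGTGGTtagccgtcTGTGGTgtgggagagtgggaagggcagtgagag
Il12a: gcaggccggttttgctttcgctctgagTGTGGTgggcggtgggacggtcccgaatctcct
The windows of Rpf2 and Nop2 also show the ETS word CCGGAAG in lower case, and that of Rag1 holds 2 copies of TGTGGT. In the Rpf2 window the ETS word overlaps a match to the STAT word TTCNNNGAA, also in lower case. Of these genes Cd3eap stood at 7.15 with ETV6-RUNX1 and 8.77 with Ctrl in Btg1-/- cells, and Nop2 at 6.17 and 7.67. In WT cells they differed by 0.13 and -0.25. Il12a stood at 9.40 with ETV6-RUNX1 and 7.93 with Ctrl in Btg1-/- cells and differed by 0.68 in WT cells.

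Genes of IL-7 and STAT5 signaling did not move one way. Receptor and kinase genes were mostly higher: 9 of 10 lay above 0 (median 0.27), none past 2-fold, with the IL-7 receptor gene Il7r at 0.95 (spread 0.46) and Jak2 at 0.96 (7.17 and 6.21). Of 10 STAT5 targets and feedback inhibitors 4 lay above 0 and 6 below. Cish, a feedback inhibitor of cytokine receptors, stood at 8.94 in Btg1-/- + ETV6-RUNX1 and 11.07 in Btg1-/- + Ctrl, and at 10.73 and 11.31 in the WT cultures. Bcl2, an inhibitor of apoptosis, stood at 6.04 in Btg1-/- + ETV6-RUNX1 and 7.95 in Btg1-/- + Ctrl, and at 6.77 and 7.74 in the WT cultures. In both genotypes these genes were thus lower in the fusion culture, with differences of -0.58 for Cish and -0.97 for Bcl2 in WT cells. Their WT spreads were 0.14 and 0.32, beside spreads of 0.32 and 0.47 in Btg1-/- cells. The Btg1-/- + ETV6-RUNX1 value of Bcl2 lay close to the floor, and with a floor of 7 its difference in Btg1-/- cells was -0.95. The survival kinase gene Pim3 differed by -1.05 in Btg1-/- cells (8.09 and 9.14) and Ccnd2, which encodes cyclin D2, by -1.01 (10.73 and 11.74).

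Bcl6, a gene that STAT5 represses in early B cells, was the member of that list past 2-fold in the other direction. Its level was 8.86 in Btg1-/- + ETV6-RUNX1 and 6.33 in Btg1-/- + Ctrl, and 7.30 in WT + ETV6-RUNX1 and 6.75 in WT + Ctrl. It was highest in the culture with the fusion and without Btg1, by 5.76-fold over the matched control (log2 difference 2.53, spread 0.43). The Btg1-/- + Ctrl value lay close to the floor, and with a floor of 7 the difference in Bcl6 was 1.86. Among 9 measured genes of BCL6 and its corepressors, the histone deacetylase gene Hdac5 differed by 1.05 (10.17 and 9.12) and Ncor1, a corepressor, by 0.60 (9.31 and 8.70), while Hdac2 differed by -0.31 and Hdac3 by -0.10. Reported BCL6 repression targets went both ways, with 7 of 12 above 0 and 5 below. Beside Bcl2 and Ccnd2, Trp53 differed by -0.60 (10.00 and 10.61), Cdkn1a, the p21 inhibitor, by 0.43 (9.17 and 8.74) and the B-cell factor Irf4 by 0.46 (11.13 and 10.67).

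FOXO target genes of pre-B cells were higher as a group: 21 of 23 compared lay above 0, 4 past 2-fold, with a median of 0.53 beside -0.15 in WT cells. Of the 23, 3 reached the floor only with ETV6-RUNX1. Over the other 20 genes 18 lay above 0 and the median was 0.48. Sums of linear levels, here and below, run over all members of a list in the table, those below the floor included. The summed linear level of the list was 18315 in Btg1-/- + ETV6-RUNX1 and 11680 in Btg1-/- + Ctrl. In WT + ETV6-RUNX1 and WT + Ctrl it was 16353 and 17148. By this sum the low array was Btg1-/- + Ctrl, and the Btg1-/- + ETV6-RUNX1 array lay near both WT arrays. The 4 past 2-fold were Bcl6, Rag1, Trib2 and Txnip. Trib2, a pseudokinase that is an oncogene in myeloid leukemia models, stood at 9.05 with ETV6-RUNX1 and 7.72 with Ctrl in Btg1-/- cells, and at 8.75 and 7.65 in WT cells. Txnip, which restrains glucose uptake, stood at 11.38 and 10.36 in Btg1-/- cells, and at 10.98 and 10.83 in WT cells. Klf2 differed by -0.54 (8.76 and 9.30) and Syk by -0.24, at the other end. The forkhead word TGTTTAC was present for 23.8% of 21 genes of this list, beside 2.88% of all genes compared. The list was chosen as FOXO targets, so this share can follow from that choice and was not tested. The STAT word TTCNNNGAA was present for 19.05% of the same genes, beside 8.21% of all genes compared.

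**Figure D3:**
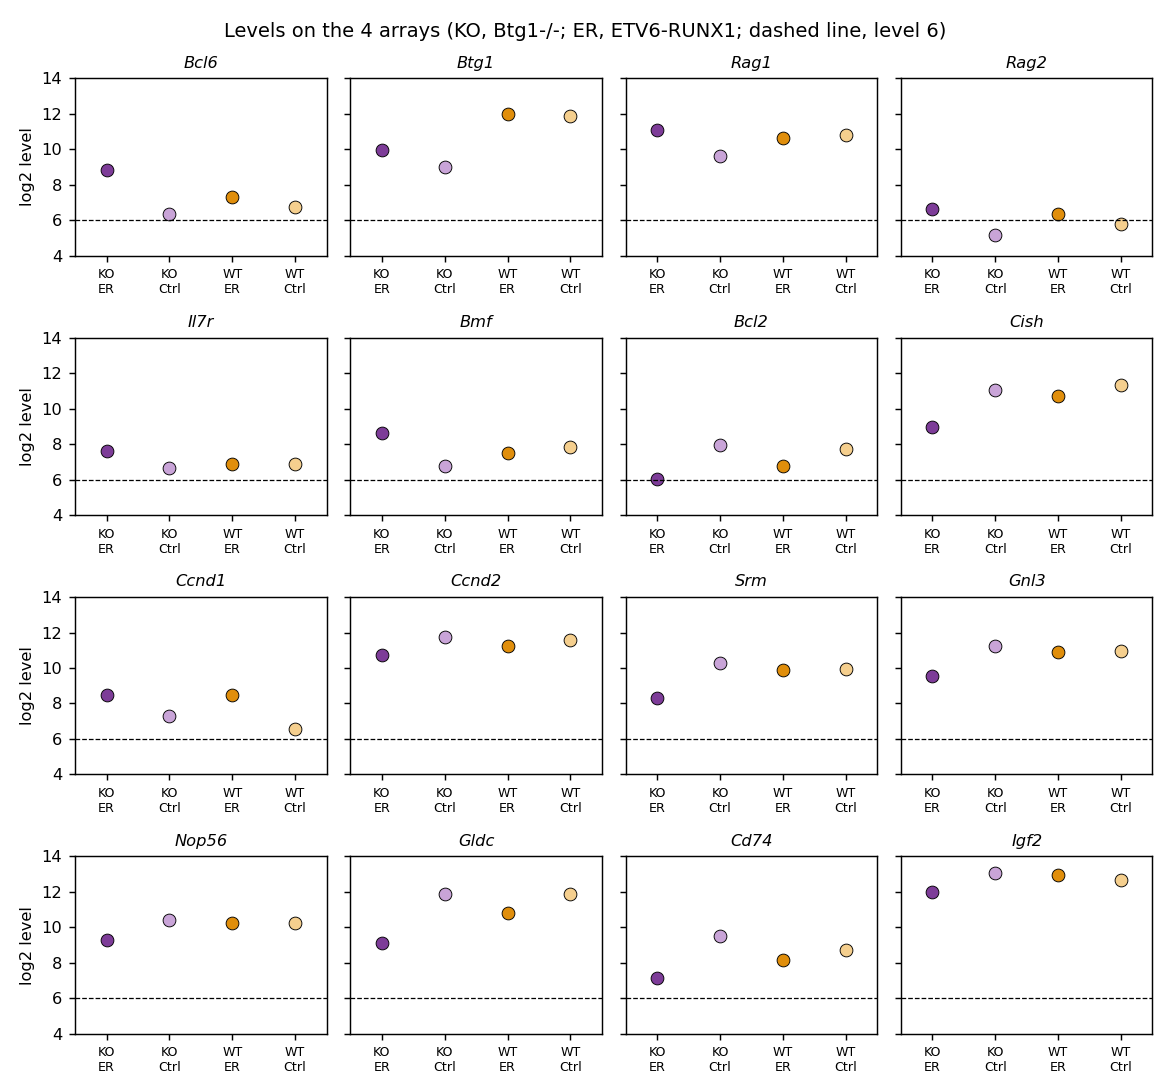
Each panel plots 1 gene as its log2 level on the 4 arrays, Btg1-/- + ETV6-RUNX1, Btg1-/- + Ctrl, WT + ETV6-RUNX1 and WT + Ctrl, with the floor of 6 dashed. Bcl6 has its highest point on the first array at 8.86, while Gnl3 at 9.54 and Srm at 8.30 have their lowest points there.

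B-lineage genes were mostly a little higher with ETV6-RUNX1 in Btg1-/- cells. Of 21 transcription factors compared 18 lay above 0, none past 2-fold, with a median of 0.28 beside -0.13 in WT cells. Ebf1, which specifies the lineage, differed by 0.22 (9.87 and 9.65), Bach2, a repressor active in pre-B cells, by 0.77 (11.57 and 10.80) and Ikzf1, which encodes IKAROS, by 0.70 (7.88 and 7.17). Klf2 and Bcl11a were on the other side, at -0.54 and -0.50. Of 18 pre-B-cell receptor and signaling genes 16 lay above 0 (median 0.36, WT median -0.12), with Cd79b, a signaling chain of the receptor, at 0.42 (13.65 and 13.23, spread 0.22), Vpreb3 at 0.53 (13.80 and 13.27) and Fcrla at 0.84 (11.23 and 10.39).

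Among V(D)J recombination genes, Rag1 and Dntt were past 2-fold. Rag1, a subunit of the recombinase that cuts antigen receptor genes, stood at 11.09 in Btg1-/- + ETV6-RUNX1 and 9.62 in Btg1-/- + Ctrl, against 10.63 in WT + ETV6-RUNX1 and 10.79 in WT + Ctrl. The low array for Rag1 was Btg1-/- + Ctrl, and the Btg1-/- + ETV6-RUNX1 array lay near both WT arrays. Its partner gene Rag2 was above the floor only in the fusion cultures, at 6.64 in Btg1-/- and 6.36 in WT cells, against 5.18 and 5.78 with Ctrl. Dntt, the terminal transferase that adds bases at recombination joints, was at least 2.07-fold higher (7.05 and 5.31). All 7 recombination genes compared lay above 0 with a median of 0.56, and 4 of the 7 were above the floor on both arrays. Cd55, a complement regulator counted among the surface markers, differed by 1.10 in Btg1-/- cells (9.72 and 8.62) and by 1.76 in WT cells.

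Survival and cell cycle genes held opposite large differences. Bmf, which promotes death by binding BCL2 proteins, stood at 8.61 in Btg1-/- + ETV6-RUNX1 and 6.77 in Btg1-/- + Ctrl, and at 7.49 and 7.81 in the WT cultures. Of 12 BCL2 family genes compared, Bmf and Bcl2 were the ones past 2-fold. With a floor of 7 Bcl2 was at -0.95, short of 2-fold. Mcl1 differed by 0.43 (11.67 and 11.24) and Bax by -0.46 (10.43 and 10.89). Ccnd1, which encodes cyclin D1, was at 8.51 with ETV6-RUNX1 and 7.32 with Ctrl in Btg1-/- cells, and at 8.50 and 6.54 in WT cells, so both fusion cultures had like levels above their controls. The CDK inhibitor gene Cdkn2d differed by 0.91 (10.20 and 9.29, spread 0.34) and by -0.09 in WT cells. Of 32 mitosis genes 26 lay above 0 and none passed 2-fold (median 0.18), with Cdc25b at 0.77 (9.28 and 8.51) and Kif11 at 0.55 (10.63 and 10.07).

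Arginine methyltransferases, enzymes of the family that BTG1 binds through PRMT1, were lower in 6 of 7 members, a subset chosen after values were seen (median -0.81). Prmt7 stood at 7.12 with ETV6-RUNX1 and 8.27 with Ctrl in Btg1-/- cells (-1.15), Prmt5 at 9.08 and 9.95 (-0.86) and Prmt1 at 12.24 and 12.95 (-0.71, spread 0.24). In WT cells these 3 differed by -0.05, -0.32 and -0.03. Prmt2 was the exception at 0.23. In the list of histone acetylation and methylation enzymes as a whole, 15 of 34 lay above 0 and 19 below. Of 8 genes compared from the list of RUNX, CBFB, ETV6 and Groucho corepressors, 5 lay above 0 and 3 below. The 1 past 2-fold was Tle6, of the Groucho family, which differed by 1.61 (9.11 and 7.50) and by 0.08 in WT cells. No gene of the BTG and CCR4-NOT list passed 2-fold, with 6 of 9 above 0 and 3 below. Btg1 itself was at 0.95 and Tob2 at 0.44, while Prmt1 and Cnot9 were at -0.71 and -0.42.

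Mast cell and basophil genes were higher in the fusion culture in all 16 members compared, out of 26 in the table, 15 of which reached the floor on both arrays, with 3 past 2-fold and a median of 0.86. In WT cells 15 of 17 were past 2-fold with a median of 1.51. The summed linear level of the list was 90142 in Btg1-/- + ETV6-RUNX1 and 55264 in Btg1-/- + Ctrl, and 91374 and 37485 in the WT cultures. The fusion cultures were thus alike in this sum, and the Ctrl cultures differed from each other. A linear sum is weighted toward the genes of highest level, such as Cpa3 below, so it says little of the other members. Slc18a2, the vesicular amine transporter, stood at 7.92 and 6.04 in Btg1-/- cells with ETV6-RUNX1 and Ctrl. Srgn, the granule proteoglycan, differed by 1.21 (11.38 and 10.17), and Hpgds, a prostaglandin D synthase, was at least 2.00-fold higher (7.004 and 5.91). Cpa3, the mast cell carboxypeptidase, differed by 0.50 (14.61 and 14.12, spread 0.20) and the IgE receptor chain Fcer1a by 0.44. Mcpt8, a basophil protease gene, and Gata1 and Mitf lay below the floor on both Btg1-/- arrays. The word TGTGGT was present for 50% of 14 genes of this list, beside 15.2% of all genes compared, which was not tested.

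Other myeloid and progenitor lists were measured only in part. Of 21 megakaryocyte genes 7 were compared. The 5 that reached the floor on both arrays lay above 0, and the others reached it only with ETV6-RUNX1. Itga2b, the platelet integrin alpha chain, differed by 1.56 (7.73 and 6.17), Gfi1b, a transcription factor of this lineage, by 1.51 (7.95 and 6.44) and Nfe2 by 1.33 (8.69 and 7.36). The summed level of all 21 genes was 1892 with ETV6-RUNX1 and 926 with Ctrl in Btg1-/- cells, and the platelet genes Pf4, Ppbp and Gp9 lay below the floor. Of 42 granulocyte and monocyte genes 13 were compared, and the sums over all 42 were 9221 and 5700. Of the 11 that reached the floor on both arrays 10 lay above 0. Tyrobp, an adaptor of activating receptors, differed by 1.477 (9.95 and 8.47) and the neutrophil protease gene Ctsg by 1.11 (7.35 and 6.23). The chemokine gene Ccl9 was at least 2.46-fold higher, while Mpo, Csf1r, Itgam and Cd14 lay below the floor. Of 26 stem and early progenitor genes 11 were compared, and the sums over all 26 were 12817 and 9090. Lmo2 differed by 0.99 (9.77 and 8.77) and Tal1 by 0.93 (7.73 and 6.81), while Mecom, Hlf and Procr lay below the floor.

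Erythroid genes reached the floor on a Btg1-/- array in 5 of 27 cases, with Klf1 and Alas2 below it. The sums over all 27 were 6896 with ETV6-RUNX1 and 7643 with Ctrl in Btg1-/- cells. T and NK genes reached the floor in 6 of 26 cases (sums over all 26, 2090 and 2390), with Cd3d, Cd3e and Cd3g below it. The mast cell, megakaryocyte, granulocyte and progenitor sums thus moved with the same pair of arrays as the lower ribosome genes and the higher B-lineage genes. Their part in those differences was not tested. In the WT pair the mast cell sums were 91374 with ETV6-RUNX1 and 37485 with Ctrl. The ribosome biogenesis median there was -0.07 and the pre-B-cell receptor median -0.12. What these WT values mean for the Btg1-/- pair was not tested.

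Genes of surface contact, antigen presentation and inflammation were split. Gja1, which encodes the gap junction protein connexin 43, stood at 6.54 in Btg1-/- + ETV6-RUNX1 and 8.99 in Btg1-/- + Ctrl, and at 8.51 and 8.90 in the WT cultures. Itgb4, the beta 4 integrin chain, was at least 6.02-fold higher (8.59 and 4.87), and in WT cells it stood at 7.86 and 4.39. Ramp1, a subunit of the receptor for calcitonin gene-related peptide, stood at 10.48 and 8.08 in Btg1-/- cells, and at 9.57 and 8.76 in WT cells. Cd59a had levels of 8.62 and 6.06 in Btg1-/- cells, and of 8.33 and 5.68 in WT cells. For Itgb4 and Cd59a the difference was thus large in both genotypes, and for Gja1 in Btg1-/- cells.

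Cd74, the invariant chain of MHC class II, stood at 7.14 in Btg1-/- + ETV6-RUNX1 and 9.52 in Btg1-/- + Ctrl, and at 8.19 and 8.75 in the WT cultures. H2-Ob, a chain of the class II modulator H2-O, differed the other way by 1.14 (10.12 and 8.98), and its partner H2-Oa by 0.79 (8.10 and 7.31). The interferon-induced genes Gbp6 and Ifi30 differed by -1.76 (6.12 and 7.89) and -1.34 (6.84 and 8.18), in a list with 14 of 21 above 0. Among NF-kappaB targets, the cytokine genes Lta and Tnf were at least 3.07-fold and 2.37-fold lower, while the inhibitor gene Nfkbia differed by 1.03 (spread 0.35). The chemokine receptor gene Cxcr5 was at least 2.13-fold lower and stood at 7.09 with Ctrl in Btg1-/- cells. Prdx1, a peroxiredoxin, differed by -1.27 (8.41 and 9.69), and Blvrb, biliverdin reductase B, by 1.15 (10.56 and 9.41), both from the antioxidant list. Igf2, a fetal growth factor gene, and H19, the imprinted RNA beside it, are named after their values were seen, as the highest-level genes past 2-fold. Igf2 stood at 12.01 and 13.08 in Btg1-/- cells with ETV6-RUNX1 and Ctrl, and at 12.97 and 12.69 in WT cells, and H19 at 12.41 and 13.73, and at 13.48 and 13.68.

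The WT pair shares no array with the Btg1-/- pair and was used to see which of the 250 genes also differed there. Of the 104 genes higher in Btg1-/- cells, 100 were compared in WT. There 70 lay above 0 (45.4% of all genes compared in WT) and 30 were also past 2-fold higher (1.88% of all genes). These 30 are 28.8% of the Btg1-/- list and 26.1% of the WT list, and the median WT difference of the 100 genes was 0.38. Cited4, a CBP-binding transcriptional regulator, C2, a complement component, P2ry14, a receptor for UDP-sugars, and Cyp2d22, a cytochrome P450, were among those past 2-fold in both, with Cited4 at 1.96 in Btg1-/- and 2.00 in WT cells. Rpl3l, Bcl6, Tle6 and Phlda1 were past 2-fold in Btg1-/- cells, with WT differences of 0.36, 0.55, 0.08 and 0.12.

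Of the 146 genes lower in Btg1-/- cells, all were compared in WT. There 116 lay below 0 (54.3% of all genes compared in WT) and 10 were also past 2-fold lower (0.359% of all genes). These 10 are 6.85% of the Btg1-/- list and 45.5% of the WT list, and the median WT difference of the 146 genes was -0.20. Gldc and Ly9, a receptor of the SLAM family, were past 2-fold lower in both genotypes. Srm differed by -0.04 in WT cells, Grwd1 by -0.02 and Trmt61a, a tRNA methyltransferase, by -0.01. Whether any gene's difference itself differs between the genotypes could not be tested with 1 array a group.

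**Figure D4:**
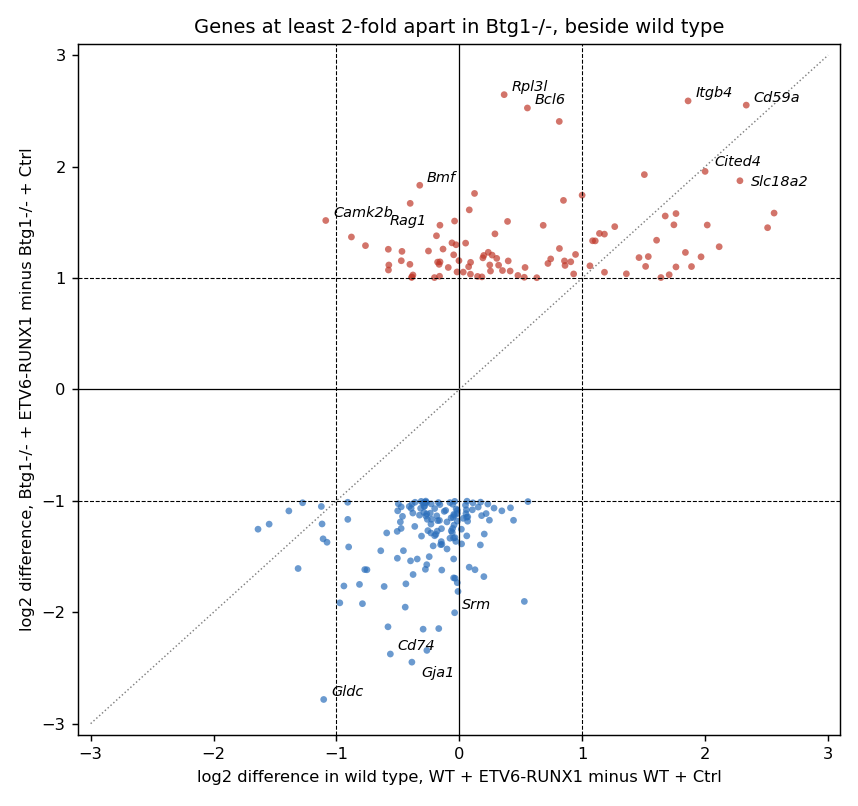
Each point is a gene past 2-fold in Btg1-/- cells that was also compared in WT cells, by its log2 difference (ETV6-RUNX1 minus control virus) in WT cells (horizontal) and in Btg1-/- cells (vertical). Dashed lines mark 2-fold and the dotted line equal differences: 30 higher genes lie past 2-fold in both, 10 lower genes do, and most lower genes lie near 0 in WT cells, with a median of -0.20.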

How the data were processed

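Biotin-labeled cRNA of 4 cultures was hybridized to Illumina arrays, 1 per group. The authors deposited RMA-normalized log2 levels, as the submitters' processing notes say; per the file headers these come from ArrayStar and MouseRef-8 content. The rule that merged a gene's probes into 1 level is not stated in any source used. RMA equalizes the distributions of arrays, so a shift of all genes cannot be seen. A further 8 columns have names that match no sample and were not used. The number of arrays limits the precision, and no read depth applies.

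Values below 6 were raised to 6 and log2 differences taken, Btg1-/- + ETV6-RUNX1 minus Btg1-/- + Ctrl, for genes at or above 6 on at least 1 of both arrays. A gene was counted from 2-fold on. The spread is the median absolute deviation of the differences, times 1.4826, over the 250 genes next in level on either side. Groups came from the array titles. Gene names were looked up in RefSeq's table for GRCm38.p6: 14304 were current symbols, 2689 older synonyms, and 1120 were kept as deposited. Genes missing from the table, among them Kit, were not analysed here.

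Members and the 49 gene lists were chosen with earlier results of these data known. Named are the 15 largest differences and 8 largest bounds each way at most, list members past 2-fold (up to 12) or the largest up to 4, members at the other end of a list, and fixed control genes. Some genes the rule selects are not reported here, and promoter examples were taken by size of difference among genes holding the word. Names known only as clones are counted, not named. Alternatives were floors of 5 and 7, other entry rules, scaling to an equal 75th percentile, subtraction of a running median, a 1.5-fold threshold and a requirement of 3 spreads. Calculations ran in Python 3.11.15 (pandas 2.3.3, numpy 2.4.6) with figures from matplotlib 3.10.9, and the steps were tested on simulated data.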

Additional observations from a re-analysis of the deposited data

Results flagged for a closer look

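Camk2b, which encodes a chain of a calmodulin-dependent kinase, lay past 2-fold in opposite directions in the genotypes. Its log2 difference between ETV6-RUNX1 and control virus was 1.52 in Btg1-/- cells (7.83 and 6.32) and -1.09 in WT cells (6.04 and 7.13). The lower value of each pair, 6.32 and 6.04, lay close to the floor, and a floor of 7 makes both differences smaller. With 1 array a group the difference between genotypes was not tested. It was the 1 gene of the 100 compared that was at least 2-fold higher in Btg1-/- cells and at least 2-fold lower in WT cells, and 0 of 146 lower genes were past 2-fold higher in WT cells. Over all genes compared in WT cells, 0.359% were at least 2-fold lower and 1.88% at least 2-fold higher. With such low shares, counts of 1 and 0 say little about these genes.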

How the results depend on the processing

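The 104 higher and 146 lower genes depended mostly on the floor and threshold. The number of higher genes was 176 with a floor of 5, 55 with a floor of 7, 68 with all 4 arrays required to reach the floor, 47 with a requirement of 3 spreads and 494 at 1.5-fold. The number of lower genes was 97 with a floor of 7, 74 with 3 spreads and 503 at 1.5-fold. In the WT pair, 102 higher and 13 lower genes met both 2-fold and 3 WT spreads. That made 115 in all, beside 121 in the Btg1-/- pair. With both Btg1-/- arrays required to reach the floor, the counts were 81 higher and 116 lower. No difference of the 250 genes changed sign, but floors and entry rules cannot turn a sign, so for them this was fixed in advance. With both Btg1-/- arrays required to reach the floor 197 of the 250 genes were left, and with all 4 arrays 184. List medians near 0 crossed or left 0. Glycolysis and hypoxia was 0.01 and became -0.03 with all 4 arrays at the floor. TGF-beta was 0.01 and became -0.02 with a floor of 5. Cytosolic ribosomal proteins moved off 0.00 to -0.01 with equal 75th percentiles. With a floor of 7 the STAT5 target median was -0.82 and that of the TGF-beta list 0.45, and with both arrays above the floor the megakaryocyte median was 1.33. The ribosome biogenesis median ran from -0.87 to -0.80, that of FOXO targets from 0.43 to 0.54 and that of mast cell genes from 0.79 to 0.86. With a floor of 7, 99 of the 250 differences moved by more than their spread, and with a floor of 5, 21 did. No paired analysis was possible because each group had 1 array and the labels carry no replicate numbers. Genes with 1 array just above the floor have exact differences that depend on where it is set: with a floor of 7 Bcl6 was at 1.86 and Bcl2 at -0.95.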
